A study of Homo sapiens with 12 samples.

Results

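The metallothionein genes are described here across 4 groups of HepG2 cells, a long-established human hepatic tumour line. The rule named 9 genes, MT1A, MT1B, MT1E, MT1F, MT1G, MT1H, MT1M, MT1X and MT2A. Of these 8 had a probe set with a gene name among the 14884 named genes of the array, each a single probe set, and MT1A was not analysed here. In HepG2 cells 1 allele of the β-catenin gene lacks exon 3, which encodes the phosphorylation sites that control turnover of the protein, so a truncated and a full-length protein are made side by side. All groups share this background, and the labels give 120 h for all of them. The groups were a control siRNA (siCtrl), an siRNA against the full-length protein (sißCat-WT), an siRNA against the truncated protein (sißCat-mut) and an siRNA against both forms (sißCat-both), with 3 arrays each. The genes were chosen by their measured log2 values in these same 4 groups, seen in earlier results. Their levels, differences and counts are therefore a description, and no p-value is given for them.

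Metallothioneins are small proteins rich in cysteine that bind zinc and copper and also cadmium. Their genes lie in a cluster on chromosome 16, and the liver is a main site of their expression. Zinc raises their transcription through the zinc-sensing factor MTF1, which binds metal response elements in their promoters, and glucocorticoids and oxidative stress also raise it. β-catenin acts at cell junctions and, with TCF/LEF factors, as the effector of Wnt signalling.

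The promoters of 4 of the 8 genes were found in the RefSeq promoter table (GRCh38.p14). They are shown because these genes were all highest after sißCat-both yet differ in the number of metal response cores they hold. Each sequence gives the 250 bases before the annotated start, 5′ to 3′, on the plus strand. They are chr16:56608334-56608583 for MT2A, chr16:56651636-56651885 for MT1B, chr16:56669564-56669813 for MT1H and chr16:56682220-56682469 for MT1X. Capitals mark the metal response core, searched as TGCACNC or TGCGCNC on both strands.
MT2A: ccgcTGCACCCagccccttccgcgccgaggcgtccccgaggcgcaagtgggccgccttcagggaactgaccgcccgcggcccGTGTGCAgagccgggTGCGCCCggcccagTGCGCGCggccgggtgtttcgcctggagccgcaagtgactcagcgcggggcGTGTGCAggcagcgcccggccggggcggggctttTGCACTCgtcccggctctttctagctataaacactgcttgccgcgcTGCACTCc
MT1B: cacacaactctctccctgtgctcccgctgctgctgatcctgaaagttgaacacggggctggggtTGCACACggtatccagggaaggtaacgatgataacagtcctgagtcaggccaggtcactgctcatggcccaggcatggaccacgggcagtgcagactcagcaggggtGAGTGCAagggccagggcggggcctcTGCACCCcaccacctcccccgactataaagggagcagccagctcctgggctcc
MT1H: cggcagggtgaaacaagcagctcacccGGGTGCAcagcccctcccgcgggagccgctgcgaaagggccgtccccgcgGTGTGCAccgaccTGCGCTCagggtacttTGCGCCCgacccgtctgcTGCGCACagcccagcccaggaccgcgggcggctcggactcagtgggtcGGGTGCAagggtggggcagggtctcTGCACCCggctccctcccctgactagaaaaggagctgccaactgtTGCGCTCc
MT1X: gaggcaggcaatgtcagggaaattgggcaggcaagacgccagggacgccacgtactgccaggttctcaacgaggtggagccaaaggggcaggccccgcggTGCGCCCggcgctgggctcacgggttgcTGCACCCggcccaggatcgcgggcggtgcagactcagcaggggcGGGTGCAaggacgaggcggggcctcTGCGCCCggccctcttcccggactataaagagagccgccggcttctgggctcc

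MT1H held 8 such cores, MT2A 7, MT1X 4 and MT1B 3. Among 35116 promoter windows of the same length 24.8% held at least 1 core, 1.58% at least 3 and 0.12% at least 5. In MT1B, MT1H and MT1X a core lay 53 to 47 bases before the start, and in MT2A one lay 54 to 48 bases before it. The TATA box, searched as TATAAA on the gene's strand, stood 30 to 25 bases before the start in MT1B and MT1X and 29 to 24 bases before it in MT2A, and these letters were not in the MT1H window. It occurred in 6.80% of all windows. Of the TCF/LEF core only the forms CTTTGAA and CTTTGTT were searched, on both strands. These forms were in none of the 4 windows and in 7.99% of all windows. Other forms of the core were not searched, so its absence cannot be stated. The AP-1 site, searched as TGANTCA on both strands, was present once in MT2A and once in MT1B, and in 6.57% of all windows. None of the motifs searched overlapped another in these 4 windows. A match describes the letters only.

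The values were log2 intensities, summarised per probe set by the authors, and their precision is limited by the 3 arrays in each group. The arrays had medians of 4.71 to 4.78 over all probe sets, and 0 pairs held identical values. Replicates correlated at 0.994 to 0.997 across genes. The labels do not say that replicates came from separate cultures, so errors and p-values cover the spread among these arrays alone, and that spread may be technical. In bulk RNA, fewer cells of a type and less RNA per cell cannot be told apart. The targeted gene was not analysed here, so the groups rest on their labels. Of 9 hepatocyte markers 7 were measured, and ALB stood at 13.0 to 13.6 and AFP at 12.5 to 13.1 on every array. Their mean level on an array was 12.01 to 12.08 after siCtrl, 11.84 to 11.94 after sißCat-WT, 12.65 to 12.72 after sißCat-mut and 12.61 to 12.63 after sißCat-both, so the hepatocyte markers moved with the knockdowns as well, and their part in the results below was not tested. The fibroblast markers DCN and LUM stood at 2.86 to 3.48 and the endothelial markers PECAM1, VWF and KDR at 3.42 to 4.94. Of 6 leukocyte markers 3 were measured. CD14 stood at 5.32 to 6.31, while CD68 stood at 9.73 to 10.7 and LYZ at 11.5 to 12.7. These genes moved in different directions. LYZ fell by 1.13 after sißCat-both and by 0.39 after sißCat-mut (limma adjusted p = 5.94e-07 and 0.00556; the latter call was lost at -0.28 with the mean of its probe sets), CD14 rose by 0.70 after sißCat-both (adjusted p = 0.000371), and CD68 rose by 0.48 after sißCat-mut (adjusted p = 0.00343). CD14 also rose by 0.50 after sißCat-WT (adjusted p = 0.0151), a call lost without siCtrl replicate 1 (0.43), sißCat-WT replicate 1 (0.47) or sißCat-WT replicate 2 (0.48). The mean of the 3 on an array was 9.23 to 9.57 over all groups. VWF rose by 0.37 after sißCat-both and 0.33 after sißCat-mut (adjusted p = 0.00863 and 0.0236), the latter lost without siCtrl replicate 1 (0.33), siCtrl replicate 3 (0.23), sißCat-mut replicate 1 (0.31) or sißCat-mut replicate 3 (0.32). The part of these shifts in the results was not tested.

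Every measured metallothionein gene was higher after sißCat-both than after siCtrl. All 8 passed the threshold of the fit across all genes (limma adjusted p under 0.05) in the upward direction, beside 15.5% of all genes, and in all 8 the 3 arrays of each group did not overlap, beside 20.7% of all genes higher without overlap. Their median log2 difference was 1.0, beside -0.01 over all genes. After sißCat-mut 6 of 8 passed upward, beside 12% of all genes, and 7 of 8 were higher without overlap, beside 20.0%. The median was 0.75, beside 0.01. The exceptions to the threshold were MT1B and MT1H. After sißCat-WT the genes divided. MT1F passed downward, beside 4.97% of all genes, and 0 of 8 passed upward with limma, beside 5.20%, while at an unadjusted p under 0.05 there were 2 lower and 2 higher. MT1F, MT1G and MT1H were lower without overlap, beside 14.8% of all genes, and the median was -0.06, beside 0.01. The 3 comparisons share the siCtrl arrays. Because the genes were chosen with these contrasts in view, nothing is drawn from the counts.

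**Figure D1:**
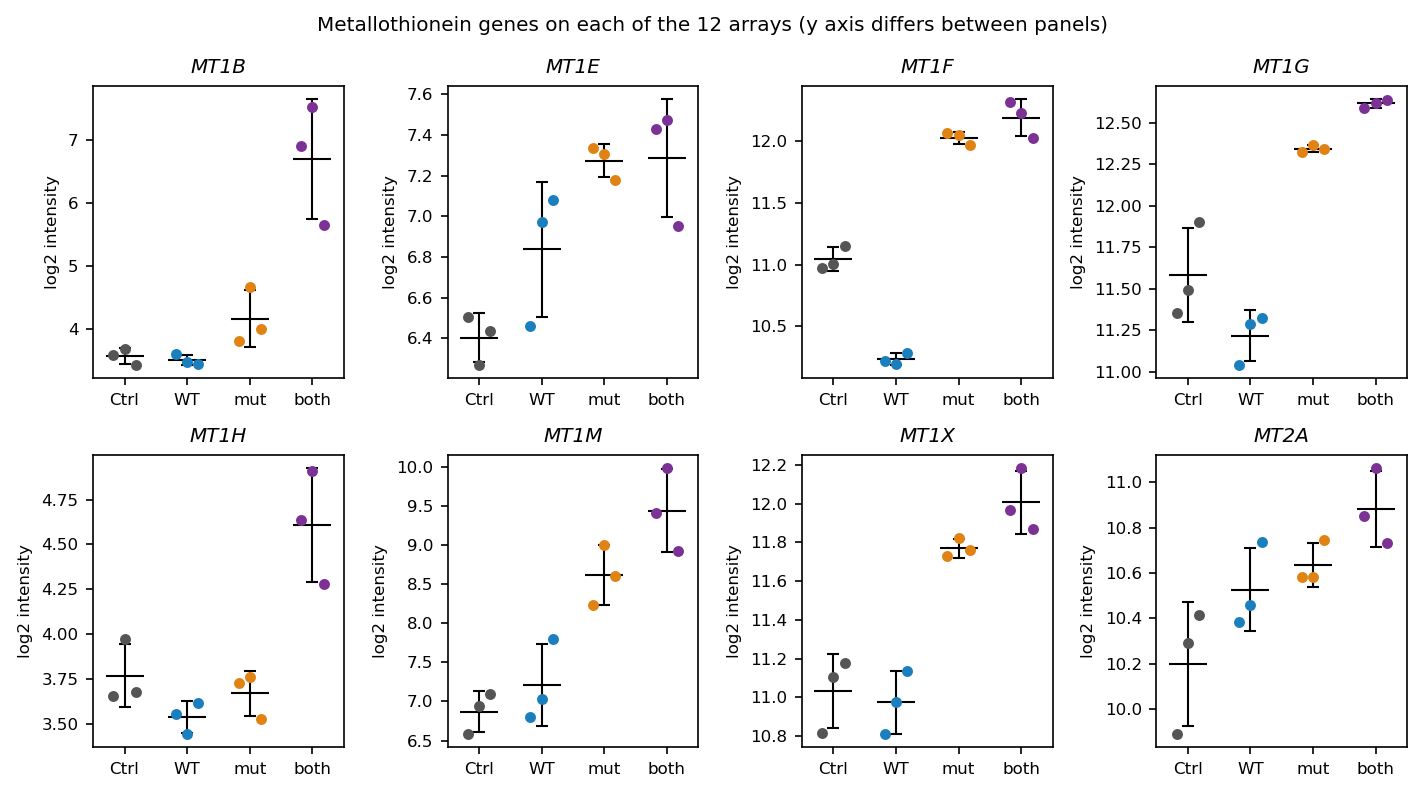
Log2 intensity (y axis, different range in each panel) of the 8 metallothionein genes on each array of siCtrl (Ctrl), sißCat-WT (WT), sißCat-mut (mut) and sißCat-both (both), with points for arrays in the order of their replicate numbers, bars for group means and whiskers for 1 SD (n = 3). All 8 genes are highest on average after sißCat-both, and MT1F is the gene with the lowest sißCat-WT arrays relative to siCtrl.

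MT1F, MT1G and MT1X encode metal-binding proteins of the MT1 group. MT1F stood at 10.97, 11.01 and 11.15 after siCtrl, 10.22, 10.19 and 10.28 after sißCat-WT, 12.06, 12.05 and 11.97 after sißCat-mut, and 12.31, 12.23 and 12.02 after sißCat-both. The sißCat-WT arrays lay below and the sißCat-mut and sißCat-both arrays above every siCtrl array, while the latter groups overlapped. The log2 difference from siCtrl was -0.81 ± 0.08 after sißCat-WT, 0.98 ± 0.08 after sißCat-mut and 1.15 ± 0.08 after sißCat-both (SE, n = 3 arrays per group), or 1.75-fold lower, 1.98-fold higher and 2.21-fold higher. It was the 75th lowest difference of all 14884 genes after sißCat-WT. MT1F passed the threshold after sißCat-WT under each of the 19 alternatives run, with log2 differences of -0.85 to -0.75. These alternatives use the arrays on which the gene was chosen, so they describe only how the value depends on the processing.

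MT1G stood at 11.36, 11.49 and 11.90 after siCtrl, 11.04, 11.29 and 11.33 after sißCat-WT, 12.32, 12.36 and 12.34 after sißCat-mut, and 12.59, 12.62 and 12.64 after sißCat-both. The 4 groups did not overlap in the order sißCat-WT, siCtrl, sißCat-mut, sißCat-both. The spread was 0.28 (SD, n = 3) after siCtrl but 0.02 after sißCat-mut and 0.03 after sißCat-both. MT1G differed from siCtrl by log2 values of -0.37 ± 0.12 after sißCat-WT, which did not pass the threshold, 0.76 ± 0.12 after sißCat-mut and 1.03 ± 0.12 after sißCat-both (SE, n = 3 arrays per group). Without siCtrl replicate 1 the sißCat-WT difference was -0.48 and passed, and it passed at -0.37 with the replicate number as a block or without dim genes and at -0.36 with array weights. Without siCtrl replicate 3 it was -0.21 and did not pass.

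MT1X stood at 10.82, 11.11 and 11.18 after siCtrl, 10.81, 10.98 and 11.14 after sißCat-WT, 11.73, 11.82 and 11.76 after sißCat-mut, and 11.97, 12.18 and 11.87 after sißCat-both. The siCtrl and sißCat-WT arrays interleaved, and the other groups lay above them without overlap, with sißCat-both above sißCat-mut. Against siCtrl its log2 difference was -0.06 ± 0.11 after sißCat-WT (95% interval -0.30 to 0.18), 0.73 ± 0.11 after sißCat-mut and 0.97 ± 0.11 after sißCat-both (SE, n = 3 arrays per group).

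MT2A encodes the most widely expressed human metallothionein, and MT1E and MT1M encode further members of the MT1 group. MT2A stood at 9.89, 10.29 and 10.41 after siCtrl, 10.39, 10.46 and 10.73 after sißCat-WT, 10.58, 10.58 and 10.74 after sißCat-mut, and 10.85, 11.06 and 10.73 after sißCat-both. Its sißCat-WT arrays overlapped both siCtrl and sißCat-mut, so that neighbouring groups in the order of means were not separated. MT2A differed from siCtrl on the log2 scale by 0.33 ± 0.13 after sißCat-WT, which did not pass, 0.44 ± 0.13 after sißCat-mut and 0.68 ± 0.13 after sißCat-both (SE, n = 3 arrays per group). The sißCat-mut difference no longer passed without siCtrl replicate 1 (0.28), sißCat-mut replicate 2 (0.46) or sißCat-mut replicate 3 (0.38).

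MT1E stood at 6.50, 6.27 and 6.44 after siCtrl, 6.46, 6.97 and 7.08 after sißCat-WT, 7.33, 7.31 and 7.18 after sißCat-mut, and 7.43, 7.47 and 6.95 after sißCat-both. The first sißCat-WT array lay within the siCtrl range and the other 2 above it. On the log2 scale MT1E differed from siCtrl by 0.43 ± 0.16 after sißCat-WT, which did not pass, 0.87 ± 0.16 after sißCat-mut and 0.88 ± 0.16 after sißCat-both (SE, n = 3 arrays per group). Without sißCat-WT replicate 1 the sißCat-WT difference was 0.62 and passed, as it did with array weights (0.47).

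MT1M stood at 6.58, 6.94 and 7.09 after siCtrl, 6.80, 7.03 and 7.80 after sißCat-WT, 8.23, 9.0 and 8.60 after sißCat-mut, and 9.41, 9.98 and 8.92 after sißCat-both. The siCtrl and sißCat-WT arrays overlapped, as did the sißCat-mut and sißCat-both arrays, and the latter lay above the former without overlap. The log2 difference from siCtrl was 0.34 ± 0.28 after sißCat-WT, 1.74 ± 0.28 after sißCat-mut and 2.57 ± 0.28 after sißCat-both (SE, n = 3 arrays per group), or 3.34-fold and 5.92-fold higher for the last pair. These were the 36th and the 24th highest differences of all 14884 genes. MT1M had the highest difference of the 8 genes after sißCat-mut.

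MT1B and MT1H differ from the other 6 in their level after siCtrl, which lay below the array medians, where RMA compresses changes and their size is uncertain. MT1B stood at 3.58, 3.68 and 3.42 after siCtrl, 3.59, 3.47 and 3.44 after sißCat-WT, 3.80, 4.67 and 4.0 after sißCat-mut, and 6.92, 7.53 and 5.65 after sißCat-both. Every sißCat-both array lay above every other array, and the group spread over 1.88 on the log2 scale. The log2 difference from siCtrl was -0.06 ± 0.34 after sißCat-WT, 0.60 ± 0.34 after sißCat-mut, which did not pass although the arrays did not overlap, and 3.14 ± 0.34 after sißCat-both (SE, n = 3 arrays per group). The latter was the 15th highest of all genes. Without sißCat-both replicate 3, which holds the lowest MT1B value of its group, the sißCat-mut difference of 0.60 passed, since the spread is estimated over all groups.

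MT1H stood at 3.66, 3.97 and 3.68 after siCtrl, 3.55, 3.44 and 3.62 after sißCat-WT, 3.73, 3.76 and 3.53 after sißCat-mut, and 4.64, 4.91 and 4.28 after sißCat-both. Its sißCat-both arrays lay above all others, and the arrays of the other 3 groups lay between 3.44 and 3.97. The log2 difference from siCtrl was -0.23 ± 0.14 after sißCat-WT, -0.10 ± 0.14 after sißCat-mut (95% interval -0.39 to 0.20) and 0.84 ± 0.14 after sißCat-both (SE, n = 3 arrays per group). The human MT1 genes are close copies of each other, so probe sets may share signal and the values are uncertain for the single gene.

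**Figure D2:**
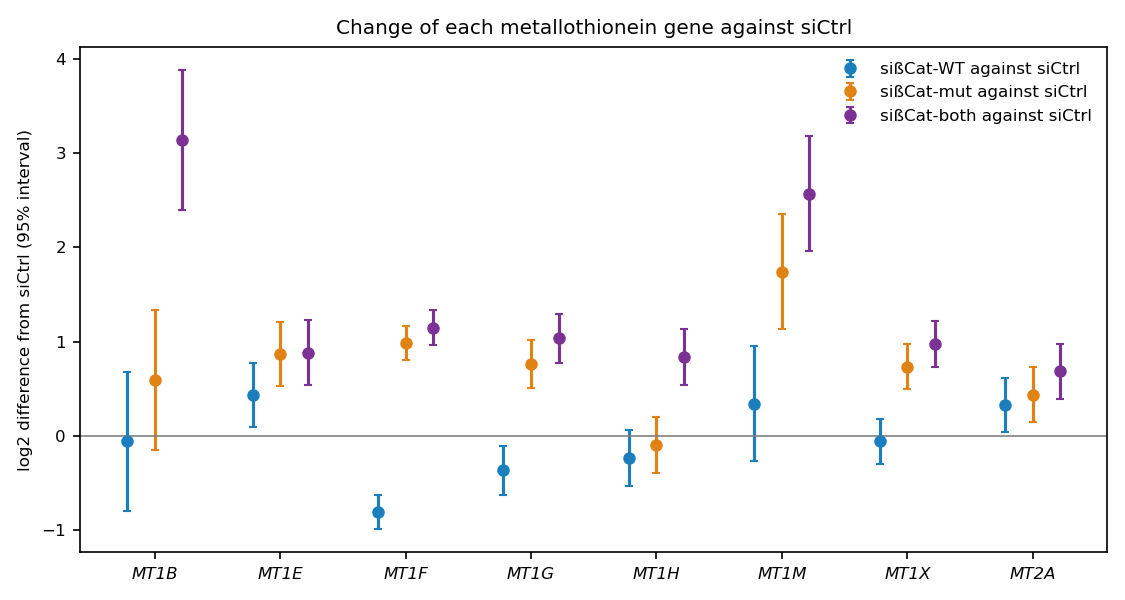
Log2 difference from siCtrl (y axis) of the 8 metallothionein genes after sißCat-WT, sißCat-mut and sißCat-both, with points for the estimates and bars for 95% intervals of the fit. The sißCat-both intervals of all 8 genes lie above 0, from 0.68 for MT2A to 3.14 for MT1B at the estimate, and MT1F is the gene farthest below 0 after sißCat-WT.

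Set against each other, sißCat-mut and sißCat-WT differed most in MT1F, at 1.79 ± 0.08 on the log2 scale, or 3.47-fold higher after sißCat-mut (SE, n = 3 arrays per group). MT1M followed at 1.40 ± 0.28, MT1G at 1.13 ± 0.12 and MT1X at 0.79 ± 0.11. These 4 of 8 passed upward, beside 14% of all genes, and 6 of 8 were higher without overlap, beside 20.2%. MT1E, at 0.44 ± 0.16, did not pass but did so without sißCat-WT replicate 3 (0.56), sißCat-both replicate 2 or sißCat-both replicate 3 (both 0.44). It also passed with renewed quantile normalization (0.46), without dim genes, with only these groups in the fit and with array weights (0.44 in these 3). MT1B, at 0.66 ± 0.34, passed without sißCat-both replicate 3 and with only these groups in the fit. MT2A had a difference of 0.11 ± 0.13 (95% interval -0.18 to 0.40).

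Between sißCat-both and sißCat-WT 7 of 8 passed upward, beside 16.1% of all genes, and 6 of 8 were higher without overlap, beside 20.2%. MT1B led at 3.20 ± 0.34, followed by MT1M at 2.23 ± 0.28, MT1F at 1.96 ± 0.08 and MT1G at 1.40 ± 0.12 (SE, n = 3 arrays per group). MT2A, at 0.36 ± 0.13, did not pass, and MT1E passed at 0.45 ± 0.16. With the replicate block the count was again 7, but MT2A passed and MT1E did not. It also did not pass with only these groups in the fit (0.45) or with array weights (0.44), nor without sißCat-WT replicate 1 (0.26), sißCat-both replicate 1 (0.38), sißCat-both replicate 2 (0.35), or siCtrl replicate 3 or sißCat-mut replicate 2 (0.45 in both cases). MT2A passed with renewed quantile normalization (0.43), and without dim genes, with only these groups in the fit, without siCtrl replicate 1 or without siCtrl replicate 3 (0.36 in these 4), as well as without sißCat-WT replicate 3 (0.46) or sißCat-both replicate 3 (0.43).

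Between sißCat-both and sißCat-mut only MT1B, at 2.54 ± 0.34, and MT1H, at 0.94 ± 0.14, passed upward of the 8 genes, beside 10.6% of all genes (SE, n = 3 arrays per group). MT1B, MT1G, MT1H and MT1X were higher without overlap, beside 16.2%. The MT1B difference was the 4th highest of all genes in this comparison. MT1M, at 0.83 ± 0.28, did not pass. It did so without sißCat-both replicate 3 (1.08), sißCat-mut replicate 2 (1.02), sißCat-WT replicate 1 or sißCat-WT replicate 3 (0.83 in both cases), and with the replicate block, with median centring and without dim genes. MT1G, at 0.27 ± 0.12, passed without siCtrl replicate 3 and with only these groups in the fit. For MT1E the difference was 0.01 ± 0.16 (95% interval -0.33 to 0.35) and for MT1F 0.16 ± 0.08 (-0.02 to 0.35).

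Additivity was examined as sißCat-both minus sißCat-WT minus sißCat-mut plus siCtrl. Here sißCat-both is described as an siRNA against both forms, not as the single siRNAs combined. The targeted gene was not analysed, so a departure cannot be told apart from differences in siRNA or knockdown depth. MT1B, MT1H, MT1F and MT1G were higher after sißCat-both than the sum of the single knockdowns gives, by 2.60 ± 0.49, 1.17 ± 0.19, 0.97 ± 0.12 and 0.64 ± 0.17 on the log2 scale (SE, n = 3 arrays per group). These 4 of 8 passed upward, beside 7.60% of all genes. For MT1F the single differences sum to 0.17, beside 1.15 after sißCat-both. MT1M, MT1X, MT2A and MT1E did not pass, at 0.49 ± 0.40, 0.30 ± 0.16, -0.08 ± 0.19 and -0.42 ± 0.22. Without sißCat-WT replicate 1 MT1E passed at -0.61.

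**Figure D3:**
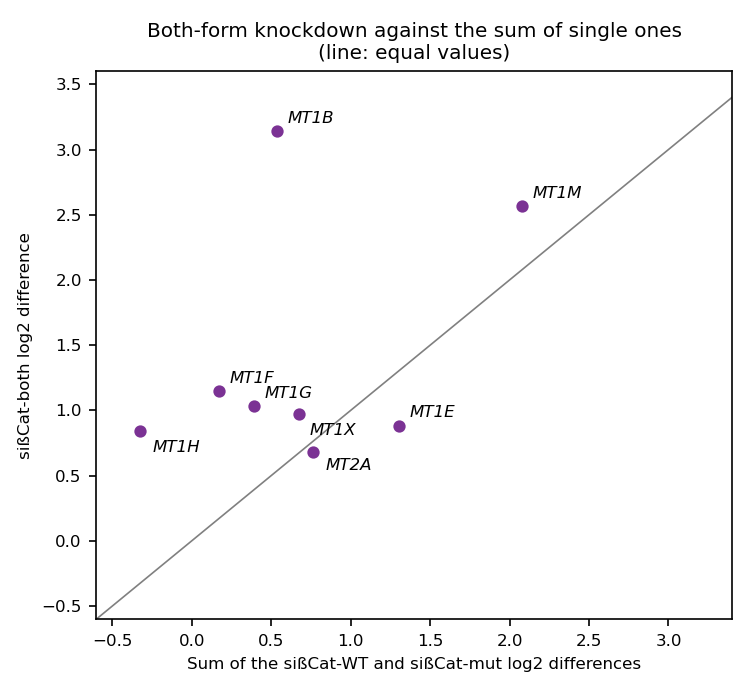
Log2 difference from siCtrl after sißCat-both (y axis) against the sum of the sißCat-WT and sißCat-mut log2 differences (x axis) for the 8 metallothionein genes, with points for the estimates and a line where both are equal. MT1B lies farthest above the line, at 3.14 beside a sum of 0.54, and MT1E lies below it, at 0.88 beside 1.31.

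After sißCat-both 7 of 8 genes had their lowest value in replicate 3, beside 34.1% of all genes, and 6 of 8 their highest in replicate 2, beside 32.5%, with MT1F and MT1G as the genes highest elsewhere. After sißCat-WT 7 of 8 were highest in replicate 3, beside 31.6% of all genes, and 5 of 8 lowest in replicate 1, beside 33.8%. After siCtrl 6 of 8 were lowest in replicate 1, beside 35.8%, and 5 of 8 highest in replicate 3, beside 32.2%. After sißCat-mut 5 of 8 were highest in replicate 2, beside 37.1%, while the lowest values were spread over replicate 1 (4 genes), replicate 2 (1) and replicate 3 (3). The groups share replicate numbers, and the genes are measured on the same arrays. A part of a shared replicate batch in these orders was not tested.

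By gene order along chromosome 16 in the RefSeq table (GRCh38.p14), MT4, MT3 and the pseudogene MT1L lie in the same cluster. None of these 3 rose or fell after sißCat-mut or sißCat-both (limma, 0 of 3 also at an unadjusted p under 0.05). Over all genes 25.6% and 33.6% were called in either direction, so 0 of 3 says little. MT3, known from brain, stood at 5.31 to 5.65 after siCtrl and 5.18 to 5.28 after sißCat-both, a log2 difference of -0.24 ± 0.16 (SE of the fit, n = 3 arrays per group, limma adjusted p = 0.282). MT4, known from squamous epithelium, had a difference of 0.23 ± 0.12 (adjusted p = 0.152). MT1L rose by 0.46 ± 0.10 after sißCat-WT (limma adjusted p = 0.00946), with a range of 2.68 to 2.93 after siCtrl and 3.17 to 3.38 after sißCat-WT. Only 4.23% of gene means lay below that of MT1L, so whether it is above background cannot be said. The call ended without sißCat-WT replicate 2 (0.40, adjusted p = 0.0524; over all alternatives 0.00385 to 0.0524).

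Of the 5 nearest measured genes on each side of the cluster, 0 of 10 rose after sißCat-both with limma, beside 15.5% of all genes. At an unadjusted p under 0.05 1 did so, GNAO1-DT at 0.32 (limma adjusted p = 0.0555). With 10 genes, 0 lies near that share. NUP93, a nuclear pore gene and the next gene beyond MT1X, fell by 0.80 ± 0.06 after sißCat-both and by 0.44 ± 0.06 after sißCat-mut (SE over 3 arrays a group; limma adjusted p = 6.89e-07 and 0.000199). NUDT21, a gene of messenger RNA 3′ end processing, fell by 0.50 ± 0.07 and 0.44 ± 0.07 (adjusted p = 6.99e-05 and 0.000298). CPNE2 fell by 0.50 ± 0.12 after sißCat-both (adjusted p = 0.00403). After sißCat-mut OGFOD1 and the Bardet-Biedl gene BBS2 fell by 0.29 and 0.23 (adjusted p = 0.011 and 0.0287) and ARL2BP rose by 0.41 (adjusted p = 0.0152). These 3 calls were lost in part when single arrays were left out, with little change in size. OGFOD1 lost its call without sißCat-mut replicate 3 (-0.23). ARL2BP lost it without siCtrl replicate 1 (0.39), sißCat-mut replicate 1 (0.38) or sißCat-mut replicate 2 (0.35). BBS2 lost it without siCtrl replicate 1 (-0.23), siCtrl replicate 2 (-0.20), sißCat-mut replicate 1 (-0.22) or sißCat-mut replicate 3 (-0.20), and with renewed quantile normalization (-0.20). MIR3935, MIR138-2 and RSPRY1 had no call against siCtrl.

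**Figure D4:**
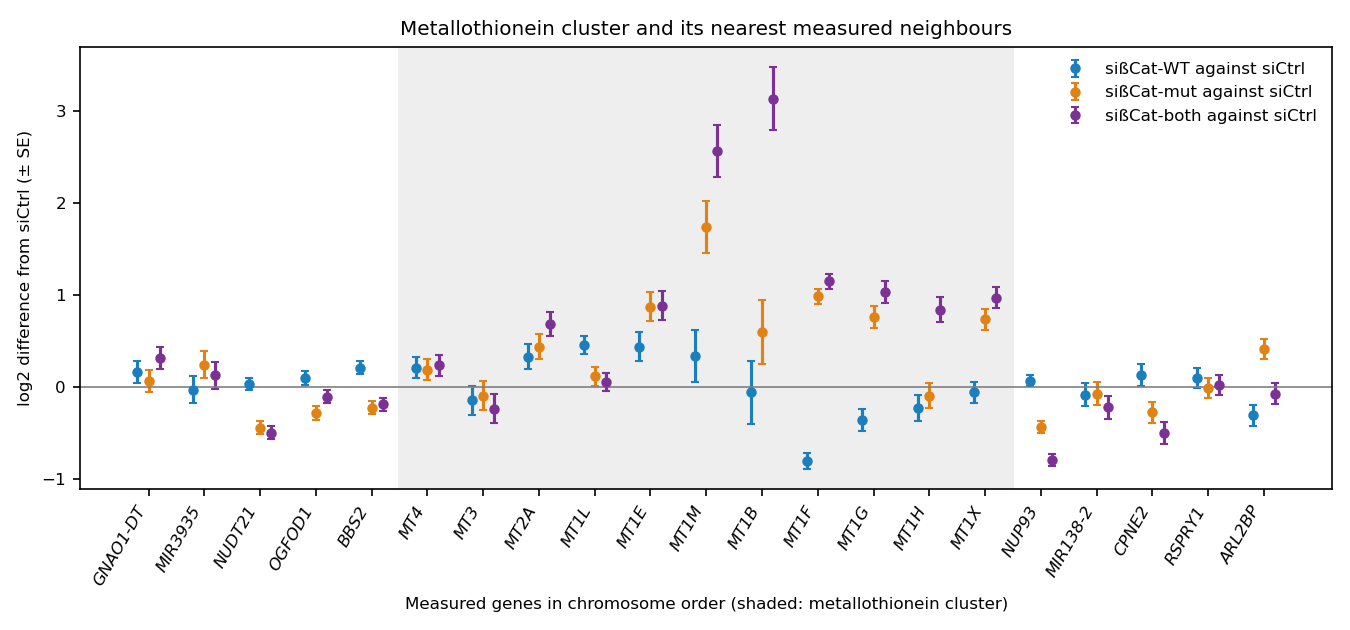
Log2 difference from siCtrl (y axis, bars for 1 SE) after sißCat-WT, sißCat-mut and sißCat-both for the measured genes of the metallothionein cluster (shaded) and the 5 nearest measured genes on each side, in chromosome order (x axis, not to scale). The sißCat-both points of MT2A, MT1E, MT1M, MT1B, MT1F, MT1G, MT1H and MT1X lie above 0, and those of NUP93 and NUDT21 below it at -0.80 and -0.50.

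The other genes of metal handling were taken from lists. The 24 zinc exporters SLC30 and zinc importers SLC39 were not analysed here. Of 19 genes listed for metal sensing and copper and iron handling 7 were measured, and 2 rose and 2 fell after sißCat-WT, 1 and 1 after sißCat-mut, and 2 and 1 after sißCat-both (background in either direction 10.2%, 25.6% and 33.6% of all genes). MTF2 gave 1 of the rises after sißCat-WT, at 0.32, and the fall after sißCat-mut, at -0.28. A part of MTF2 in metal sensing was not tested, so these counts are not changes of metal sensing alone. The sißCat-WT count was 1 up and 1 down without siCtrl replicate 2, siCtrl replicate 3, sißCat-WT replicate 2 or sißCat-WT replicate 3, and 2 up and 1 down without siCtrl replicate 1. MTF1, the zinc-sensing activator of metallothionein genes, stood at 8.12 to 8.24 after siCtrl and 8.38 to 8.77 after sißCat-WT, a rise of 0.41 ± 0.10 (limma adjusted p = 0.0156), while the metallothioneins divided in direction there. After sißCat-mut and sißCat-both, its differences were 0.03 ± 0.10 and 0.21 ± 0.10 and did not pass (adjusted p = 0.857 and 0.119). The sißCat-WT call of MTF1 ended without siCtrl replicate 2 (0.40), siCtrl replicate 3 (0.38), sißCat-WT replicate 2 (0.40) or sißCat-WT replicate 3 (0.31).

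CP, the copper-carrying ferroxidase ceruloplasmin, fell by 1.05 ± 0.16 after sißCat-WT and by 0.78 ± 0.16 after sißCat-both (SE over 3 arrays a group; limma adjusted p = 0.000798 and 0.00148), and had a difference of 0.30 ± 0.16 after sißCat-mut. COMMD1, a factor of copper export, rose by 0.50 after sißCat-mut and 0.42 after sißCat-both (adjusted p = 0.000691 and 0.00159). COX17, which delivers copper to cytochrome oxidase, rose by 0.39 after sißCat-both (adjusted p = 0.00159). It fell by 0.30 after sißCat-WT (adjusted p = 0.028), a call that ended without siCtrl replicate 1 (-0.29), siCtrl replicate 2 (-0.30), siCtrl replicate 3 (-0.31), sißCat-WT replicate 2 (-0.32) or sißCat-WT replicate 3 (-0.24).

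Of 17 genes that respond to heavy metals and oxidative stress 11 were measured. After sißCat-both 1 rose and 4 fell, beside 33.6% of all genes called in either direction, with a median log2 difference of -0.36. After sißCat-mut 5 fell and 0 rose (limma; 1 higher and 5 lower at an unadjusted p under 0.05), beside 25.6% of all genes, with a median of -0.21. Without siCtrl replicate 1 the sißCat-both count was 0 up and 7 down, and without dim genes it was 1 up and 7 down. The gene that rose there, SRXN1, which restores oxidised peroxiredoxins and is named after its value was seen, also lost its call with median centring, with only these groups in the fit, and without siCtrl replicate 2 or 3 or sißCat-both replicate 1 or 3. HMOX1, the haem-degrading enzyme induced by cadmium, fell by 1.03 ± 0.13 after sißCat-mut and by 0.71 ± 0.13 after sißCat-both (SE over 3 arrays a group; limma adjusted p = 5.89e-05 and 0.000707). The chaperone gene HSPH1 fell by 0.75 ± 0.16 after sißCat-both (adjusted p = 0.00223), and HSF1, the heat shock factor, by 0.57 ± 0.09 (adjusted p = 0.000163). KEAP1, the adaptor that keeps NRF2 low, fell by 0.71 ± 0.08 after sißCat-mut (adjusted p = 2.54e-05). NFE2L2, the gene of NRF2 itself, also fell, by 0.35 after sißCat-mut and by 0.40 after sißCat-WT, and passed the threshold in both. NRF2 activity was not tested. After sißCat-WT 1 of the 11 rose and 3 fell, beside 10.2% of all genes. The fall held for 1 gene without siCtrl replicate 1, sißCat-WT replicate 2 or sißCat-WT replicate 3 and for 2 genes without siCtrl replicate 2 or 3. A rise was called in 0 of 11 without any of these arrays except siCtrl replicate 3.

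HMOX1 fell by 0.57 after sißCat-WT (limma adjusted p = 0.0131), and lost the call without siCtrl replicate 1 (-0.54), sißCat-WT replicate 2 (-0.53) or sißCat-WT replicate 3 (-0.52). HSPH1 rose by 0.60 after sißCat-WT (adjusted p = 0.0313) and fell by 0.54 after sißCat-mut (adjusted p = 0.0246). The former call ended without siCtrl replicate 1 (0.44), siCtrl replicate 2 (0.64), sißCat-WT replicate 2 (0.53) or sißCat-WT replicate 3 (0.51) and when the fit held only its own 2 groups (0.60). The latter ended without siCtrl replicate 2 (-0.49), siCtrl replicate 3 (-0.43) or sißCat-mut replicate 1 (-0.40).

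Of 14 glucocorticoid targets 9 were measured. After sißCat-both 3 rose and 3 fell, beside 33.6% of all genes called in either direction (limma adjusted p under 0.05). After sißCat-mut 4 rose and 2 fell, beside 25.6%. Without siCtrl replicate 2 or sißCat-mut replicate 2 only 2 rose, since PER1 (0.19 and 0.33) and ANGPTL4 (0.56 and 0.43) lost their calls. PER1 also lost its call with median centring (0.28) and with only these groups in the fit (0.31). The same held for PER1 without sißCat-WT replicate 1 (0.31) or sißCat-mut replicate 3 (0.23), and for ANGPTL4 without siCtrl replicate 1 (0.47). After sißCat-WT 2 rose and 0 fell (4 and 0 at an unadjusted p under 0.05), beside 10.2%, and 1 rose without siCtrl replicate 1, siCtrl replicate 3 or sißCat-WT replicate 2. SGK1 lost its call in these cases (0.56, 0.46 and 0.45). Its log2 difference was 0.58 after sißCat-WT but -0.88 after sißCat-mut and -0.72 after sißCat-both, all past the threshold. Only 25.8% of gene means lay below that of SGK1. DUSP1, a phosphatase of MAP kinases, rose by 1.46 ± 0.14 after sißCat-both, 0.59 ± 0.14 after sißCat-mut and 0.95 ± 0.14 after sißCat-WT (SE, n = 3 arrays per group, adjusted p = 3.14e-06, 0.0068 and 0.000757). TAT, the liver tyrosine aminotransferase, rose by 1.40 ± 0.18 after sißCat-both and 1.09 ± 0.18 after sißCat-mut (adjusted p = 4.47e-05 and 0.000578). ERRFI1, a brake on the EGF receptor, fell by 1.01 ± 0.10 after sißCat-both (adjusted p = 3.74e-06). FKBP5, a co-chaperone of the glucocorticoid receptor, fell by 0.90 ± 0.13 and 0.53 ± 0.13 after sißCat-both and sißCat-mut (adjusted p = 0.000116 and 0.00855).

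**Figure D5:**
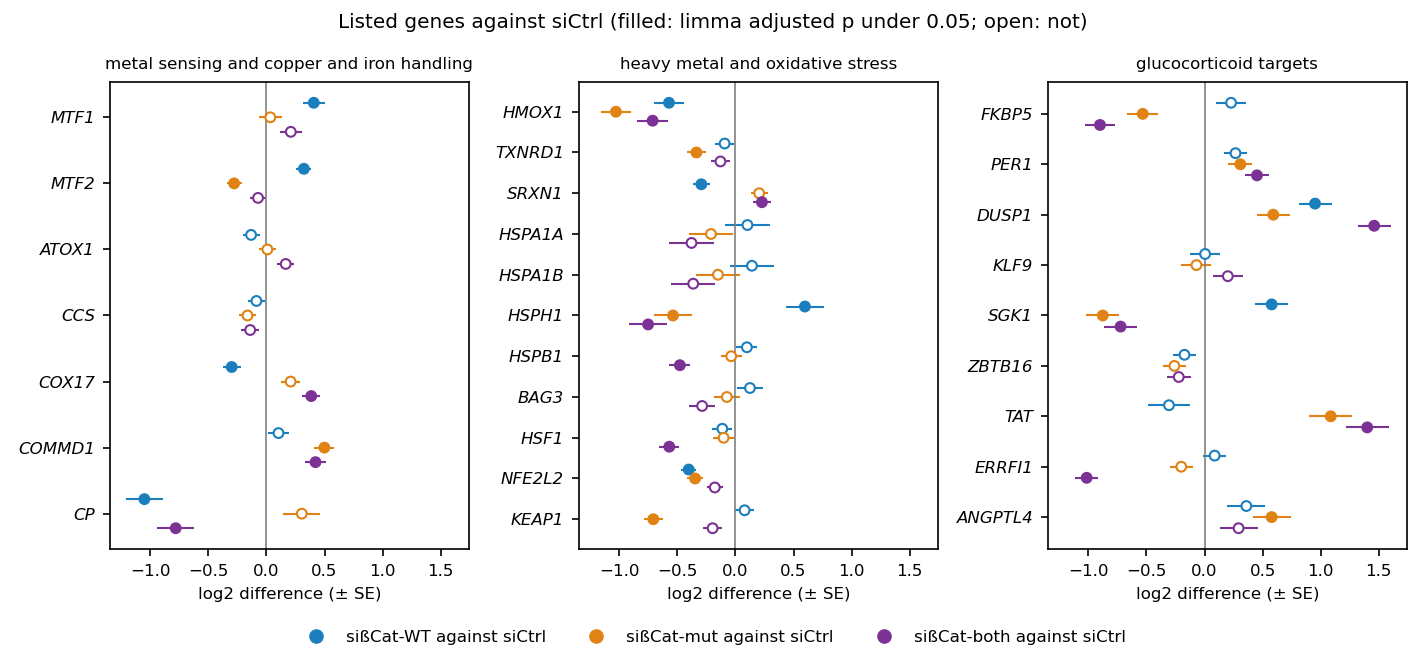
Log2 difference from siCtrl (x axis, bars for 1 SE) of the measured genes of 3 lists after sißCat-WT, sißCat-mut and sißCat-both, with filled points at a limma adjusted p under 0.05 and open points otherwise. HMOX1 lies at -0.57, -1.03 and -0.71, and DUSP1 lies to the right of 0 in all 3 comparisons.

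The genes most like the metallothioneins in pattern were ranked by Pearson correlation over the 12 arrays with the mean of the 8 genes, among the 1126 other genes whose group means spanned at least 1 on the log2 scale. The mean was taken over unscaled log2 values, so members with larger differences weigh more in it. Between sißCat-both and sißCat-mut MT1B differed by 2.54 and MT1M by 0.83, beside 0.01 for MT1E and 0.16 for MT1F. Likeness to each single member was not ranked. KANSL1L (0.975), DHRS7 (0.974), PALMD (0.974), the Wnt inhibitor gene DKK4 (0.968), PLEK2 (0.968) and the chemokine gene CX3CL1 (0.965) were highest. The lowest were STC2, a secreted glycoprotein gene (-0.979), NHP2, a small nucleolar RNP gene (-0.971), SNRPD2, a spliceosome gene (-0.970), and SOX9 (-0.964). DKK4 had group means of 7.64 after siCtrl, 7.04 after sißCat-WT, 9.42 after sißCat-mut and 11.26 after sißCat-both. Among the 8 genes themselves the correlation with their mean ran from 0.792 for MT1E to 0.977 for MT1M. Each of the 8 is part of that mean, so these values are not comparable with those of the other genes. The arrays share groups and platform, so these values are a description.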

How the data were processed

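Gene expression in 12 HepG2 samples, 3 per siRNA group, was measured on Affymetrix arrays. The deposited table holds log2 intensities for 53617 probe sets. Per the submitters' processing notes, Affymetrix Expression Console 1.1 and RMA were used by the authors. That the scale is log2 was read from the values. RMA equalises the arrays and compresses changes at low levels. Raw intensities and detection calls were not used here, and the annotation build is not given in the sources used here. A platform table named 16098 probe sets with 1 gene each, 0 with several and 37519 not listed. Their identifiers matched RefSeq, with 0 symbols updated. For 779 genes with several probe sets the one with the highest mean was used, giving 14884 genes.

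One limma 3.58.1 model (R 4.3.3) held a mean for each of the 4 groups over all arrays, with 8 residual degrees of freedom, two-sided, Benjamini-Hochberg adjustment per comparison over 14884 genes, called at an adjusted p under 0.05, in 7 comparisons, and the step was tested on simulated data. Figures used matplotlib 3.10.9 in Python 3.11.15. The metallothionein genes and all lists were chosen with earlier results of these data known. Named genes were all members, the other cluster genes, 5 neighbours on each side, and 6 most and 4 least alike in pattern. Up to 4 called genes per list with the largest differences from siCtrl were also named. Further single genes were named where a result turned on them, and NFE2L2 beside KEAP1 and MTF2 beside MTF1. Titles share replicate numbers. Correlations of deviations from group means exceeded 0.1 in all 3 pairs only for sißCat-both against sißCat-WT (0.115 to 0.155), so numbers pair the arrays there, which rests on the data alone. Alternatives were renewed quantile normalization, median centring, leaving out dim genes (mean below percentile 40), the mean of probe sets, only the groups compared, array weights, the replicate block and leaving out each array.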

Additional observations from a re-analysis of the deposited data

Results flagged for a closer look

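In 4 genes the level after sißCat-both lay above the sum of the single knockdowns, by 2.60 for MT1B, 1.17 for MT1H, 0.97 for MT1F and 0.64 for MT1G on the log2 scale. The genes were chosen on the values of these same groups, so this is a description and the difference was not tested on independent arrays. The difference also cannot be told apart from differences in siRNA or knockdown depth between the groups. MT1B and MT1H start from levels below the array medians.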

How the results depend on the processing

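The number of metallothionein genes past the threshold stayed within 1.5 times of the reported one under all alternatives for sißCat-mut and sißCat-both against siCtrl and for both forms or the truncated form against sißCat-WT. For sißCat-WT against siCtrl it was 2 without dim genes, 3 with array weights and 2 with the replicate block, beside 1, and 1 to 2 when single arrays were left out. Without dim genes, which removes MT1B and MT1H from the fit, it was 1 for sißCat-both against sißCat-mut and 2 for additivity, beside 2 and 4. With the replicate block the counts were 6 and 8 for sißCat-mut and sißCat-both against siCtrl, 4 for sißCat-mut against sißCat-WT, 7 and 3 for sißCat-both against sißCat-WT and sißCat-mut, and 4 for additivity. The block changed the calls of MT1G, MT1E, MT2A and MT1M given above and no other call of these 8 genes. Of 1042 alternative values of the 8 genes 1 moved by more than the spread between replicates, MT1F after sißCat-mut at 1.09 with renewed quantile normalization, and none of the called ones changed direction. Of 4045 alternative values behind the called differences of the other named genes, 188 missed the threshold and 0 turned. No detection call was used, so whether MT1B and MT1H are above background after siCtrl cannot be said.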
